A study of Mus musculus with 4 samples.

Results

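The 10 genes described here encode proteins of the contractile machinery of smooth muscle: the actins *Acta2* and *Actg2*, the smooth muscle myosin chains *Myh11* and *Myl9*, the thin filament proteins *Tpm2*, *Cnn1*, *Tagln*, *Smtn* and *Lmod1*, and the intermediate filament protein *Des*. They were chosen by name for this function, with earlier results of these data known. Each was a single row among the 21462 genes of the table. RNA was sequenced from smooth muscle cells (SMCs) of mouse lung in 2 libraries with inactivated *Tet3* (Tet3 mutant) and 2 control libraries. The *Tet3* product converts the methylated cytosines of DNA to hydroxymethylcytosine. Mutants carried the floxed Tet3 fl/fl alleles, the tamoxifen-inducible α-SMA-ERT2Cre transgene and the ROSA26 tdTomato reporter. Controls in the paper at large lacked the floxed allele and carried the Cre, the reporter or both. All animals were C57BL/6. Tamoxifen was injected daily from young adulthood. After depletion of CD45+ and Ter-119+ blood cells, living tdTomato+ cells were sorted, a signal that needs both the Cre and the reporter. The Cre is driven by the promoter of α-SMA, the protein that *Acta2* encodes. A transgene with the promoter of a member of the group thus drove the recombination that marked the cells collected. The age at collection, the sex and the number of animals in a library are not given in the labels. P-values therefore measure the spread between these libraries.

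Smooth muscle contracts when phosphorylated myosin II slides along actin filaments. These filaments are coated by tropomyosin and bound by calponin, transgelin, smoothelin and leiomodin, and they are anchored at dense bodies together with desmin filaments. The same genes are commonly used to tell contractile SMCs from synthetic SMCs, which express less of them. Many of them carry CArG boxes near their start, sequences bound by serum response factor (SRF), whose coactivator myocardin is restricted to muscle.

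The RefSeq promoter table (GRCm38.p6) held an entry for 7 of the 10 genes and none for *Actg2*, *Myh11* and *Tagln*. A CArG box was counted as 2 C, 6 bases of A or T and 2 G, either exactly or with 1 G or C among the 6 inner bases. The motif is its own reverse complement in form, so a match counts for both strands. Among all 32851 promoters, 8.59% held at least 1 match in the 250 bases before the start site, and 1.47% held the exact form. Of the 7 contractile genes, *Myl9* and *Acta2* held matches, 2 in each. They are shown as matches in letters to the box of the shared regulator, with the boxes in capitals. Among the 7 genes with an entry, no other held these letters, and binding was not measured. For *Myl9* (chr2:156775214-156775419, plus strand) the stretch ends at the first annotated exon. Its exact box lay at -161 to -152 and its box with 1 inner G or C at -99 to -90, counted from the RefSeq start. For *Acta2* (minus strand), the boxes lay at -84 to -75 and at -34 to -25, both with 1 inner G or C. Both *Acta2* boxes lay within the first exon of the GENCODE gene model, which starts 217 bases before the RefSeq start. Each is therefore shown with 10 bases on either side, as the stretches chr19:34255438-34255467 and chr19:34255388-34255417 in turn.
Myl9 upstream region: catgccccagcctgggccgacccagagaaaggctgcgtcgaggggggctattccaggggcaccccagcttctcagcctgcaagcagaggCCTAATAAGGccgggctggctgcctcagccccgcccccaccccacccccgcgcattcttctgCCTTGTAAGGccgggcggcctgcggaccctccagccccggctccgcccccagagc
Acta2 box 1: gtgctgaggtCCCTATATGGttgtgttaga
Acta2 box 2: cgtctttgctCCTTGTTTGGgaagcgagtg

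The values were normalized counts that the authors had divided by a size factor for each library and rounded to whole numbers. Summed over genes they came to 6805272 to 7164573 per library, and the steps of the low values gave an estimate of 6.32 to 7.56 M reads behind them. *Tet3* itself (chromosome 6, 83362373 to 83459084), counted over the whole gene, had 1847 and 1926 normalized counts in the controls and 1534 and 1444 in the mutants. Both mutants lay below both controls, with a log2 fold change of -0.34 ± 0.10 (SE, n = 2 and 2; limma, adjusted p = 0.681), which passed an unadjusted p under 0.05 and not the adjusted threshold. Control replicate 2 stood apart from the other 3 libraries. It differed more than 2-fold from all of them in 388 genes, against 10 to 73 genes for each other library. It had 2 normalized counts of the X-linked transcript *Xist*, where the others had 5214 to 6781, and 774 of the Y-linked gene *Ddx3y*, where the others had 0. These transcripts mark female and male mice.

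All 10 genes were detected in all 4 libraries, at levels that are comparable between genes only per length. Levels here are normalized counts per kilobase of annotated exon, averaged over the 4 libraries. *Acta2* (404) and *Myl9* (401) came first, followed by *Tagln* (292), *Myh11* (275), *Smtn* (224) and *Des* (221). After a gap came *Tpm2* (130.0) and *Actg2* (129.6), and then *Lmod1* (67.8) and *Cnn1* (44.9). Between neighbours in this order, only *Des* and *Tpm2* had library values that did not overlap. In 3 further pairs the ranges over libraries overlapped but the order was the same within each of the 4 libraries: *Myl9* above *Tagln*, *Actg2* above *Lmod1* and *Lmod1* above *Cnn1*. In the other 5 pairs the order differed between libraries. The lowest *Des* value was 166 and the highest *Tpm2* value 158 normalized counts per kilobase. *Acta2* ranked 236 among 14060 protein-coding genes tested, and *Cnn1*, a calponin specific to differentiated SMCs, ranked 8895, below the median of 65.9 normalized counts per kilobase.

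Markers of several other lung cells were present at higher levels per length. The median level of the 10 contractile genes was 222 normalized counts per kilobase. It was 562 for 10 alveolar type 2 cell markers, 386 for 8 fibroblast markers, 285 for 10 endothelial markers and 266 for 15 macrophage markers. Pericyte markers, which belong to the mural cells of small vessels, had a median of 114. The smooth muscle genes were thus detected, but their median lay below those of the alveolar type 2, fibroblast, endothelial and macrophage markers. The libraries also held RNA of genes that define other cell types, and no gene of these lists was at 0 in any library. In such bulk data, more cells of a type and more RNA per cell cannot be told apart.

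**Figure D1:**
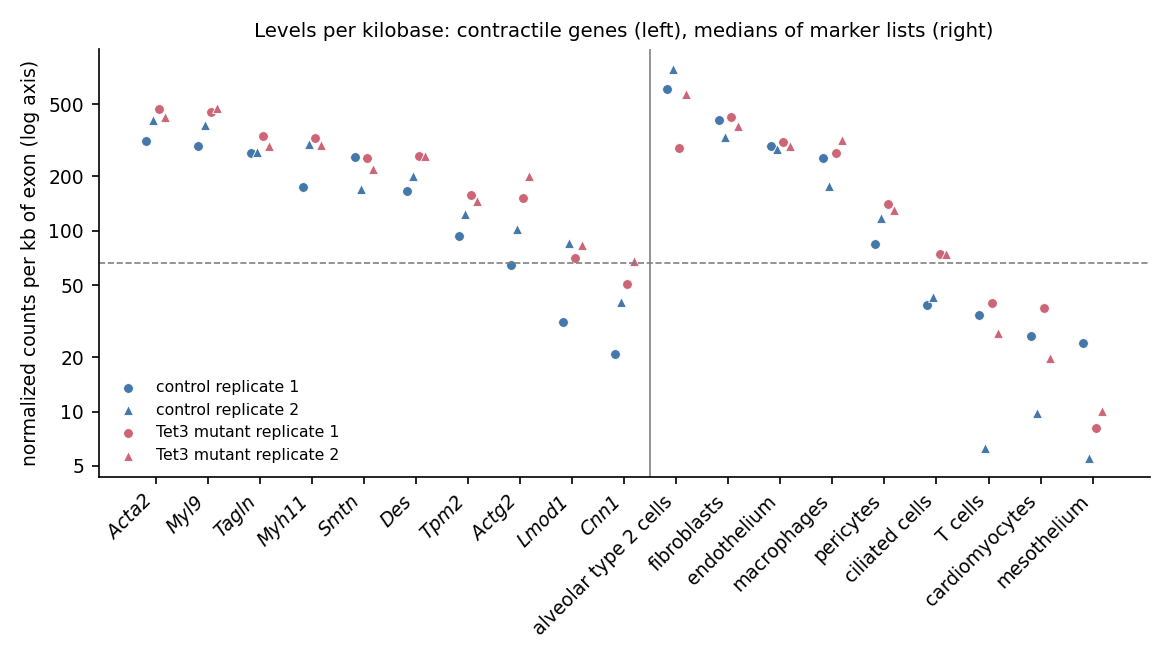
Normalized counts per kilobase of exon (log axis) of the 10 contractile genes (left, ordered by mean level) and the median of each marker list (right), 1 point per library. The dashed line is the median of protein-coding genes tested (65.9). *Acta2* and *Myl9* lie at 404 and 401, while the alveolar type 2 cell and fibroblast marker medians lie at 562 and 386.

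Next, the mutants were compared with the controls to ask whether contractile genes change with loss of Tet3. Values are counts over all exons of a gene, so they do not separate full-length mRNA from transcripts that start within it. For contractile genes such as *Acta2* and *Cnn1*, the paper reports more reads after *Tet3* inactivation but less full-length mRNA. It also reports lower levels of the contractile markers α-SMA and MYH11. All 10 genes had a higher mean in the mutants, and 49% of the 16659 genes tested had a log2 fold change above 0. In 7 of the 10, both mutants lay above both controls, which was so for 19.6% of all genes tested. At an unadjusted p under 0.05 there were 5 members, all higher in the mutants: *Actg2*, *Des*, *Myl9*, *Tpm2* and *Cnn1*. Of all genes tested, 3.83% passed this threshold in that direction and 2.85% in the other. No member passed an adjusted p under 0.05 (limma, adjusted p = 0.681 to 0.831), and neither did any other gene (0% called, smallest adjusted p = 0.0902), so no contractile gene is called changed. The median log2 fold change was 0.49 over the 10 genes and -0.01 over all genes tested. An exact permutation test with 2 libraries against 2 cannot give a p below 0.333, so none was used.

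Values below are normalized counts, with the controls in the order replicate 1, replicate 2 and the mutants likewise, and fold changes are on the log2(value + 1) scale.

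*Acta2* (ENSMUSG00000035783, chromosome 19, 34241090 to 34255590), which encodes α-SMA, the main actin of vascular and airway smooth muscle, had 686 and 900 in controls (mean 793 ± 151, SD, n = 2) and 1032 and 929 in mutants (mean 981 ± 72.8). The groups did not overlap but nearly met, between control replicate 2 and mutant replicate 2. Its log2 fold change was 0.32 ± 0.17 (SE, 95% interval -0.11 to 0.74, adjusted p = 0.687), 0.12 without control replicate 1 and 0.51 without control replicate 2. The values of *Actg2* (ENSMUSG00000059430, chromosome 6, 83512905 to 83536265), the γ actin typical of gut and other visceral smooth muscle, were 101 and 158 in the controls against 237 and 311 in the mutants. Every mutant value was well above both controls, with a ratio of means of 2.12 and a log2 fold change of 1.10 ± 0.28 (95% interval 0.37 to 1.82, adjusted p = 0.681), the largest among the 10 genes. Without control replicate 1, its log2 fold change was 0.78, and without control replicate 2 it was 1.42.

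Among thin filament proteins, *Tpm2* (ENSMUSG00000028464, chromosome 4, 43514711 to 43523765) encodes β-tropomyosin, which lies along the actin groove. Its values were 270 and 358 in the controls against 460 and 425 in the mutants. The groups did not overlap, and the log2 fold change was 0.51 ± 0.18 (SE, 95% interval 0.05 to 0.97, adjusted p = 0.681). It was 0.30 without control replicate 1 and 0.71 without control replicate 2. *Cnn1* (ENSMUSG00000001349, chromosome 9, 22099216 to 22109630) encodes calponin 1, which binds actin and inhibits the myosin ATPase. It was the lowest of the 10 genes per kilobase in every library, with normalized counts of 57 and 110 in the controls against 138 and 186 in the mutants. The controls themselves differed 1.93-fold, and the log2 fold change of 1.01 ± 0.38 (SE, 95% interval 0.04 to 1.97, adjusted p = 0.681) was 0.54 without control replicate 1 and 1.47 without control replicate 2.

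*Tagln* (ENSMUSG00000032085, chromosome 9, 45929619 to 45936058), encoding the actin-binding protein transgelin or SM22α, had 534 and 541 in the controls against 662 and 586 in the mutants. Its controls were the closest pair of any member, and both mutants lay above them by a small margin, with a log2 fold change of 0.21 ± 0.12 (SE, 95% interval -0.10 to 0.52, adjusted p = 0.689). It was 0.20 without control replicate 1 and 0.22 without control replicate 2. *Smtn* (ENSMUSG00000020439, chromosome 11, 3517523 to 3540612), encoding smoothelin of contractile SMCs, had 1113 and 747 in the controls against 1100 and 963 in the mutants. It was the only member with its lowest value in control replicate 2, and control replicate 1 lay above both mutants. Its log2 fold change of 0.17 ± 0.21 (SE, 95% interval -0.37 to 0.72, adjusted p = 0.831) was 0.46 without control replicate 1 and turned to -0.11 without control replicate 2. *Lmod1* (ENSMUSG00000048096, chromosome 1, 135324807 to 135368065), encoding the actin filament nucleator leiomodin 1, had 123 and 338 in the controls against 280 and 330 in the mutants. Both mutants lay between the controls, which differed 2.75-fold, and the log2 fold change of 0.57 ± 0.48 (SE, 95% interval -0.66 to 1.81, adjusted p = 0.751) turned to -0.15 without control replicate 1 and was 1.30 without control replicate 2.

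Of the motor proteins, 1 had overlapping groups and 1 had not. *Myh11* (ENSMUSG00000018830, chromosome 16, 14194535 to 14291372), the smooth muscle myosin heavy chain, had 1330 and 2300 in the controls against 2473 and 2249 in the mutants. Control replicate 2 fell between the mutants, and the log2 fold change of 0.43 ± 0.27 (SE, 95% interval -0.26 to 1.12, adjusted p = 0.702) was 0.04 without control replicate 1 and 0.83 without control replicate 2. *Myl9* (ENSMUSG00000067818, chromosome 2, 156775420 to 156781658), the regulatory light chain whose phosphorylation starts contraction, had 341 and 443 in the controls against 525 and 555 in the mutants. Here the groups were separate, with a log2 fold change of 0.47 ± 0.17 (SE, 95% interval 0.05 to 0.90, adjusted p = 0.681), which was 0.28 without control replicate 1 and 0.66 without control replicate 2. *Des* (ENSMUSG00000026208, chromosome 1, 75360329 to 75368579), the muscle intermediate filament protein, had 623 and 754 in the controls against 972 and 965 in the mutants. Its mutants were nearly equal, and its log2 fold change of 0.50 had the smallest SE (0.13) after *Tagln* (95% interval 0.16 to 0.84, adjusted p = 0.681). Leaving out control replicate 1 gave 0.36 and leaving out control replicate 2 gave 0.64.

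**Figure D2:**
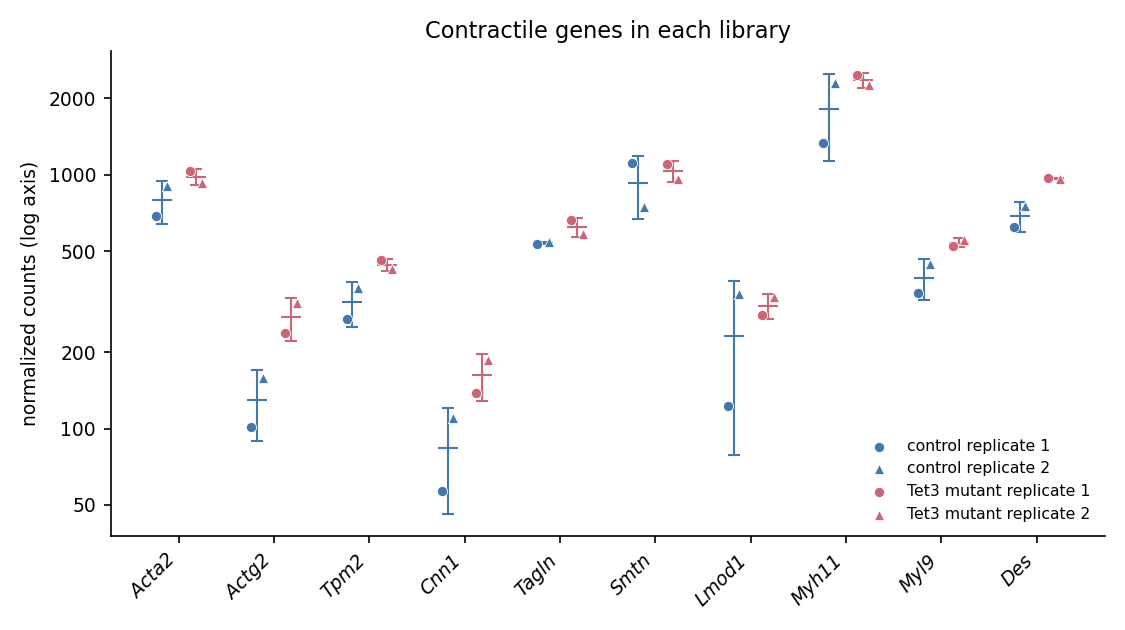
Normalized counts (log axis) of each contractile gene in the 2 control (blue) and 2 Tet3 mutant (red) libraries. Circles are replicate 1, triangles replicate 2, horizontal marks the group mean and bars its SD. Control replicate 1 is lowest for 9 genes, and control values of *Smtn*, *Lmod1* and *Myh11* reach into or above the mutant range.

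The size of these differences depended on control replicate 1, which had the lowest value in 9 of the 10 genes. The 10 genes summed to 5178 and 6649 normalized counts in the controls and to 7879 and 7499 in the mutants. Expressed per 10000 normalized counts of the library, these were 7.39, 9.28, 11.4 and 11.0. For 4 genes (*Acta2*, *Smtn*, *Lmod1* and *Myh11*), the controls differed from each other by more than the group means did on the log2 scale. Without control replicate 1, the median log2 fold change of the members was 0.29, and 3 passed an unadjusted p under 0.05. Of all genes tested, 20.2% then did so in either direction. Both mutants then lay above the remaining control in 8 members, against 39.9% of all genes. Without control replicate 2, the library that stood apart, the median was 0.69, and 8 passed, against 5.37% of all genes. Both mutants then lay above the remaining control in 9, against 32.4% of all genes. Leaving out either mutant gave medians of 0.47 and 0.48, and 0 members passed with 1 mutant library left, when 1.64% (without mutant replicate 1) and 2.49% (without mutant replicate 2) of all genes did.

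The spread between controls was larger than that between mutants in 9 of the 10 genes, all but *Tagln*. The squared difference of a pair divided by its sum, which is about 1 where only read sampling separates 2 libraries, was 12.3 or more in the controls for these 9 genes. For *Tagln* it was 0.0456 in the controls and 4.63 in the mutants, and for *Actg2* the values were close, at 12.5 and 9.99. In the mutants it ranged from 0.0253 for *Des* to 10.6 for *Myh11*. Over all 10888 genes averaging at least 100 normalized counts, its mean was 24.9 for the controls and 6.49 for the mutants.

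**Figure D3:**
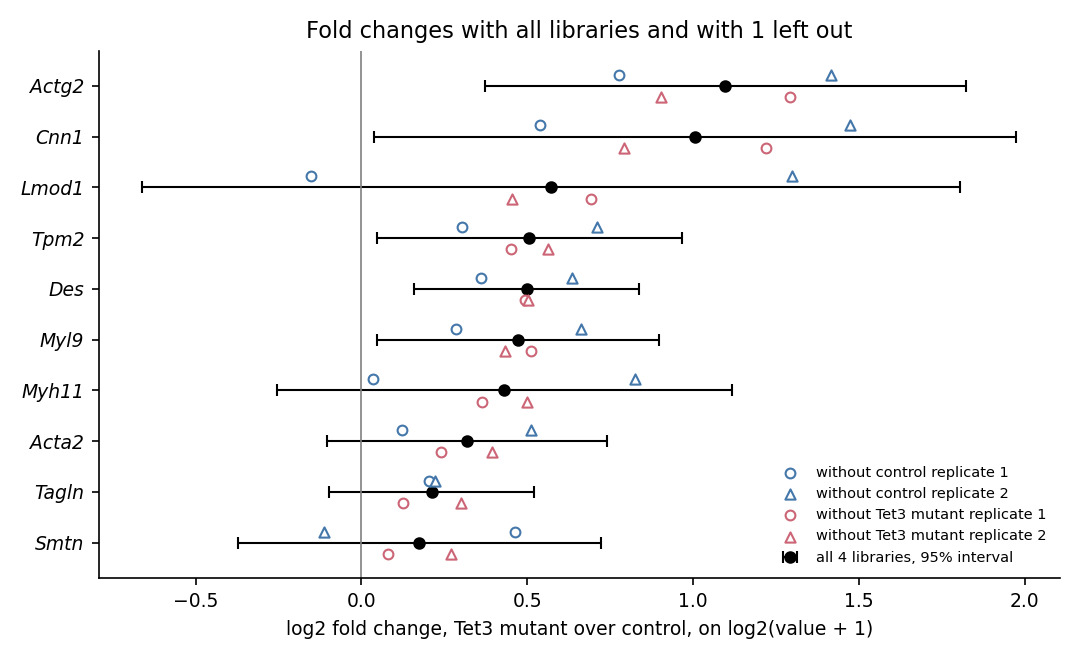
Log2 fold change of Tet3 mutant over control on log2(value + 1) for each contractile gene (black, with 95% interval from limma) and with 1 library left out (open symbols). *Lmod1* lies at -0.15 without control replicate 1 and *Smtn* at -0.11 without control replicate 2, while the intervals of 5 genes lie above 0.

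By their median, genes of proteins that work with these 10 lay closer to 0, though some had log2 fold changes like those of the members. Of 27 further genes of the contractile apparatus and its attachment to membrane and dense bodies, 16 had a log2 fold change above 0 and 11 below. Their median was 0.03, and this list was not limited to genes specific to smooth muscle. Only *Pdlim7*, a PDZ and LIM domain protein of actin bundles, passed an unadjusted p under 0.05, with 472 and 418 in the controls against 605 and 572 in the mutants (log2 fold change 0.40, adjusted p = 0.681). Both mutants lay above both controls, and the log2 fold change was 0.49 without control replicate 1 and 0.32 without control replicate 2. The actin-bundling *Synpo2* had 474 and 752 in the controls against 867 and 875 in the mutants (0.54, adjusted p = 0.681), with control replicate 1 lowest, and its log2 fold change was 0.21 without that library and 0.88 without control replicate 2. *Pdlim3* had a log2 fold change of 0.47 (adjusted p = 0.729) that turned to -0.03 without control replicate 1 and was 0.96 without control replicate 2. *Hspb7*, a small heat shock protein, had 72 and 74 in the controls against 75 and 128 in the mutants (0.42, adjusted p = 0.736), and its log2 fold change was 0.04 without mutant replicate 2. *Pgm5*, a protein of adherens junctions, had a log2 fold change of 0.17 (adjusted p = 0.774) that turned to -0.01 without control replicate 2. The thin filament protein *Cald1* (0.11, adjusted p = 0.781), the phosphatase subunit *Ppp1r12b* (-0.12, adjusted p = 0.786) and the focal adhesion protein *Tns1* (-0.12, adjusted p = 0.782) lay near 0, in either direction.

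Actins, myosins and related proteins of non-muscle cells had a median log2 fold change of -0.01 over 15 genes, 7 of them above 0 and 8 below, and 0 passed an unadjusted p under 0.05. The smallest p belonged to *Myh14*, a non-muscle myosin heavy chain, which had 1407 and 3470 normalized counts in the controls against 1073 and 1334 in the mutants (-0.88, adjusted p = 0.681). It was high in control replicate 2 alone, and its log2 fold change was -0.23 without that library and -1.54 without control replicate 1. *Cnn3*, the calponin of non-muscle cells, had a log2 fold change of 0.24 (adjusted p = 0.690; 0.35 without control replicate 1 and 0.13 without control replicate 2) and *Cnn2* one of -0.08 (adjusted p = 0.833).

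Genes of the striated sarcomere were mostly low, and 13 of 14 were in the table, 11 of them with a mean of at least 10. Their median log2 fold change was 0.48, and it was 0.59 without control replicate 1 and 0.01 without control replicate 2. *Actc1*, the cardiac actin, had 156 and 197 in the controls against 274 and 310 in the mutants, with both mutants above both controls (0.73, adjusted p = 0.681). It was 0.56 without control replicate 1 and 0.90 without control replicate 2. *Myh7*, a myosin heavy chain of slow muscle, was lower in the mutants, with 471 and 1004 in the controls against 215 and 459 in the mutants (-1.13, adjusted p = 0.681). Both mutants lay below both controls, the second by a small margin, and the log2 fold change was -1.67 without control replicate 1 and -0.58 without control replicate 2.

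**Figure D4:**
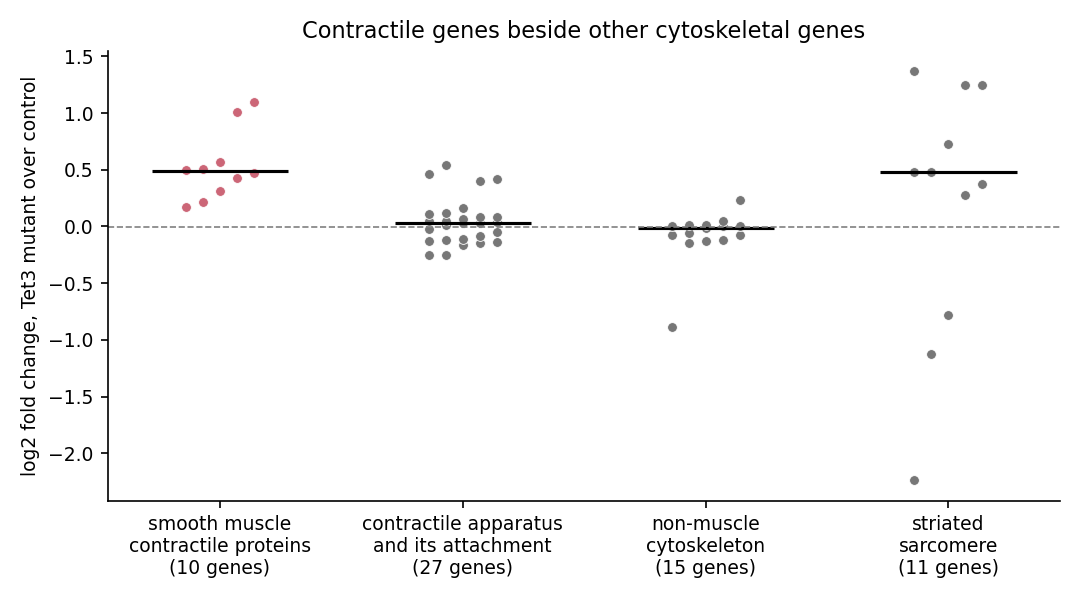
Log2 fold change of Tet3 mutant over control, 1 point per gene, for the 10 contractile proteins (red) and 3 lists of other cytoskeletal genes (grey). Black bars are list medians (0.49, 0.03, -0.01 and 0.48) and the dashed line is the median of all genes tested (-0.01).

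Of the regulators that act through CArG boxes, *Srf* had lower and *Myocd* higher values in the mutants, neither at the adjusted threshold. *Srf*, the factor that binds the boxes, had 612 and 573 normalized counts in the controls against 435 and 439 in the mutants, both below both controls (log2 fold change -0.44 ± 0.11, SE, adjusted p = 0.681), and -0.39 and -0.48 without control replicate 1 and 2 in turn. *Myocd*, its muscle-restricted coactivator myocardin, had 67 and 147 in the controls against 191 and 218 in the mutants, both above both controls (1.03 ± 0.40, SE, adjusted p = 0.681). As in 9 of the 10 contractile genes, control replicate 1 was lowest, and the *Myocd* log2 fold change was 0.47 without it and 1.59 without control replicate 2. *Mrtfa* and *Mrtfb*, the coactivators that respond to free actin, had log2 fold changes of 0.01 and -0.03. Both *Srf* and *Myocd* passed an unadjusted p under 0.05 and neither passed the adjusted threshold. The paper reports unchanged expression of *Myocd*.

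Markers of other cells were measured beside the contractile genes, and the medians that follow are of log2 fold changes. The 7 pericyte markers summed to 4551 and 4818 in the controls against 6482 and 5602 in the mutants. Both mutants lay above both controls in 5 of them, and in 19.6% of all genes tested. *Rgs5* went the other way, with 244 and 342 in the controls against 192 and 201 in the mutants (-0.55). The median of the 7 was 0.43, 0.29 without control replicate 1 and 0.51 without control replicate 2. In the 10 ciliated cell markers both mutants were above both controls in all 10, with sums of 2589 and 2882 against 4962 and 3578. Their median was 0.72, and 0.59 and 0.73 without control replicate 1 and 2 in turn. Macrophage markers summed to 10112 and 8247 in the controls against 10578 and 12320 in the mutants, with 14 of 15 above 0. Their median of 0.43 was 0.55 without control replicate 1 and 0.25 without control replicate 2. The alveolar type 2 cell markers summed to 16681 and 25097 against 11307 and 15141, with 0 of 10 above 0. Their median of -0.71 was -1.01 without control replicate 1 and -0.39 without control replicate 2. For the 10 endothelial markers the median was 0.10, which was 0.21 without control replicate 1 and 0.02 without control replicate 2. For the 8 fibroblast markers it was 0.18, which became 0.29 and 0.07 in the same way. For T cells the median was 1.13, which was 2.14 without control replicate 1 and 0.13 without control replicate 2. The 6 cardiomyocyte markers, which include *Actc1*, had a median of 0.55, with sums of 569 and 668 in the controls against 897 and 666 in the mutants. That median was 0.58 without control replicate 1 and 0.21 without control replicate 2. The 6 mesothelial markers had a median of -0.31, with sums of 1116 and 699 in the controls that reached beyond the 836 and 923 of the mutants on both sides. This median turned to 0.37 without control replicate 1 and was -1.22 without control replicate 2. The part of these differences in cell markers in the values of the contractile genes was not tested.

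The genes with the most similar profile to the members were found by the root mean square difference between centred log2 values over the 4 libraries, against the median profile of the 10 genes. Among 10575 genes averaging at least 100 normalized counts, the nearest were *Ccdc181* (0.023 on the log2 scale), *Samd4* (0.028), *Kif9* (0.035), *Mpp6* (0.040) and *Zdhhc14* (0.043). *Tpm2* (0.036), *Myl9* (0.038) and *Des* (0.043) lay at a like distance from the shared profile, and *Lmod1* (0.389) and *Smtn* (0.378) farthest from it. *Samd4*, an RNA-binding protein, had 492 and 612 in the controls against 776 and 756 in the mutants. *Kif9* encodes a kinesin of motile cilia and had 101 and 135 in the controls against 173 and 168 in the mutants. With 4 libraries, a match in profile is a description only.

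*Actg2*, the member with the largest fold change, lies on chromosome 6, 53.8 kb beyond the higher coordinate of *Tet3*, the inactivated gene. The 2 genes on either side of it, chosen for position after their values were seen, did not share its direction. *Dguok*, between *Tet3* and *Actg2*, had 263 and 237 normalized counts in the controls against 203 and 225 in the mutants (log2 fold change -0.22). *Stambp*, on the far side, had 300 and 315 in the controls against 266 and 275 in the mutants (-0.18). Any effect of the altered locus on *Actg2* was not tested.

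Reads on more than 1 gene or place were dropped by the authors, which can lower genes that overlap or resemble others. In 7 members (*Acta2*, *Actg2*, *Tpm2*, *Cnn1*, *Lmod1*, *Myh11* and *Myl9*), no window of 75 bases, the length of a read, in the longest transcript occurred in a transcript of another gene. The actins were thus told apart by full-length reads. Windows were shared in *Tagln* (40.9%, with 2 genes), *Smtn* (9.54%, with 1) and *Des* (5.01%, with 1), always on the opposite strand of the same locus. For *Tagln*, 62.4% of exon bases lie in *Gm48529* on the other strand, which had 71 and 55 in the controls against 46 and 61 in the mutants. A further 5.43% are shared with *Pcsk7*, also on the other strand. It had 516 and 507 in the controls against 402 and 378 in the mutants (log2 fold change -0.39), and its bearing on *Tagln* was not tested. Whether strand was used in counting is not stated, so the levels of *Tagln*, *Smtn* and *Des* are less certain than those of the other 7 members.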

How the data were processed

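RNA from sorted cells was depleted of ribosomal RNA and made into stranded libraries (SMARTer Stranded Total RNA), read as single ends. Per the submitters' processing notes, Trimmomatic 0.36 was used for trimming, STAR 2.6.0c for alignment to GRCm38 and featureCounts (Subread 1.6.0) for counts per gene. Reads on several genes or places were excluded. The authors normalized the counts with DESeq2 and deposited them rounded to whole numbers, so the deposited values are scores and not raw counts, and no count model was run. Use of strand in counting is not given in the sources used here.

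The fit was limma 3.58.1 (R 4.3.3) on log2(value + 1), with lmFit and eBayes with a mean-variance trend and the group as the only term. It was run over the 16659 genes whose values averaged at least 10, with two-sided tests and Benjamini-Hochberg adjustment over all of them. The simulated data on which the fit was tested had the same spread in every library. No simulated library stood apart as control replicate 2 did here. Exon lengths came from GENCODE on GRCm38, whose coordinates matched those of all 10 members, and the starts for the promoters from RefSeq GRCm38.p6. The 10 members are the smooth muscle contractile genes given by name. The members and lists were chosen with earlier results of these data known, so no test was run over a list. Named beyond the members were *Tet3*, up to 8 genes a list by smallest p, and the 5 genes nearest in profile. Outside this rule, and chosen after their values were seen, stand *Xist*, *Ddx3y*, *Dguok*, *Stambp*, *Gm48529*, *Pcsk7* and *Rgs5*. Grouping followed the labels' genotype.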

Additional observations from a re-analysis of the deposited data

How the results depend on the processing

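Another filter, the variance trend and the replicate block leave a fold change as it is by construction. Of 80 combinations of a member's log2 fold change with 1 of the 8 other alternatives, 78 kept the direction. The other 2 were *Smtn*, which ranged from -0.11 (without control replicate 2) to 0.46 with 1 library left out, and *Lmod1*, which ranged from -0.15 (without control replicate 1) to 1.30. Without the variance trend, 1 gene was called, 2 members and 0 further contractile apparatus genes passed an unadjusted p under 0.05. With equal library totals or quantile normalization, 2 contractile apparatus genes passed, against 6.91% and 6.99% of all genes tested in turn. Leaving out 1 library at a time gave 273 to 3366 genes, 0 to 8 members, 0 to 3 contractile apparatus genes and 0 to 2 non-muscle genes at an unadjusted p under 0.05, with 0.29 to 0.69 for the members' median and -0.39 to -0.30 for *Tet3*. The lone library left in a group was assumed to vary like the others, and the cause of these shifts was not tested. Members with mutants above the controls numbered 7 to 9 with all libraries or 1 left out, an alternative chosen after seeing the data. Of all genes tested, 19.6% to 39.9% lay so in the same settings. With the longest transcript as the length, 4 levels per kilobase moved by more than the SD between replicates (*Tagln* to 364, *Smtn* to 290, *Des* to 274 and *Tpm2* to 174), in an order of the 10 that was the same.

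Replicate numbers are shared by the groups, and the deviations of same-numbered libraries correlated at 0.13 over all genes tested and at 0.64 over the 10 members. With 2 pairs this does not settle whether the numbers pair the samples, and no label says that they do, so the fit without a block was kept. With the replicate number as a block, 5 members, 2 contractile apparatus genes and 1 non-muscle gene passed an unadjusted p under 0.05, 1637 of all genes tested did so, and no gene was called. The 2 libraries per group limit the precision of each value.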
